A study of Homo sapiens with 22 samples.

Results

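The comparison set the 2 libraries labelled I-BET151 against the 4 libraries labelled JQ1 and Molib as one set, 6 of the 22 libraries of the series. Its members were the genes that reached 1 FPKM in 2 or more of the table's 8 libraries, 14936 of 60669 genes. FPKM is a fragment count scaled to the length of the gene and to the size of the library. The cells were MDA-MB-231, an established human line of triple-negative breast cancer, with the genotype labelled WT, grown in DMEM with 10% FBS. They received JQ1, Molib or I-BET151, each at 0.5 µM for 3 days, or DMSO, the solvent control, also for 3 days, with 2 libraries in each of these 4 groups. The series, of 11 groups in all, sets inhibition of BET proteins beside the complex that writes m6A on RNA. The 2 JQ1 columns carry no replicate number and were taken as the JQ1 samples of this table by elimination. They are called libraries a and b. Whether replicates were grown separately is not in the labels, and p-values therefore cover only the spread among these libraries, which may be technical.

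BET proteins, among them BRD2 and BRD3, bind acetylated lysines on histones through paired bromodomains and help RNA polymerase II to leave its pause near the start of genes, in part through P-TEFb, the kinase of CDK9 and a cyclin T. JQ1, a thienotriazolodiazepine, and I-BET151, a dimethylisoxazole with a quinoline core, both occupy the acetyl-lysine pocket. P-TEFb is held inactive by the 7SK RNA and HEXIM1, and the HEXIM1 gene is a widely used response marker that rises when BET bromodomains are blocked, whereas cytokine genes such as CSF2, which encodes GM-CSF, typically fall.

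Both response markers went against the label in the libraries labelled I-BET151. HEXIM1 (ENSG00000186834.4, hg38 chromosome 17, 45148502 to 45152101, plus strand) was at 10.3 and 6.37 FPKM in the libraries labelled I-BET151, 73.8 and 76.7 with JQ1, 72.9 and 69.6 with Molib and 26.5 and 29.4 with DMSO. Its level was therefore lowest in the libraries labelled I-BET151 and highest in JQ1 and Molib, with DMSO between and no overlap among those 3 sets. Against JQ1 and Molib it was 8.79-fold lower by mean FPKM, a log2 difference of -3.02 (SE 0.16, limma adjusted p = 1.51e-05). Exons of a transcript known only as AC138150.1 overlap HEXIM1 on the other strand, and whether counting used strand is not given in the sources used here. CSF2 (ENSG00000164400.6, hg38 chromosome 5, 132073790 to 132076170, plus strand) was at 321 and 279 FPKM in the libraries labelled I-BET151, 1.05 and 1.13 with JQ1, 1.46 and 1.46 with Molib and 71.3 and 76.4 with DMSO. The 2 libraries labelled I-BET151 stood above DMSO, and JQ1 and Molib stood far below it. CSF2 was 236-fold higher than in JQ1 and Molib (log2 difference 7.05, SE 0.09, limma adjusted p = 1.04e-07). Log2 differences here and below are on log2(FPKM + 1), which understates the change of genes at low levels, while folds are ratios of mean FPKM. Because of these markers, the 2 libraries are named by their label throughout, and no direction below is read as an effect of I-BET151.

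**Figure D1:**
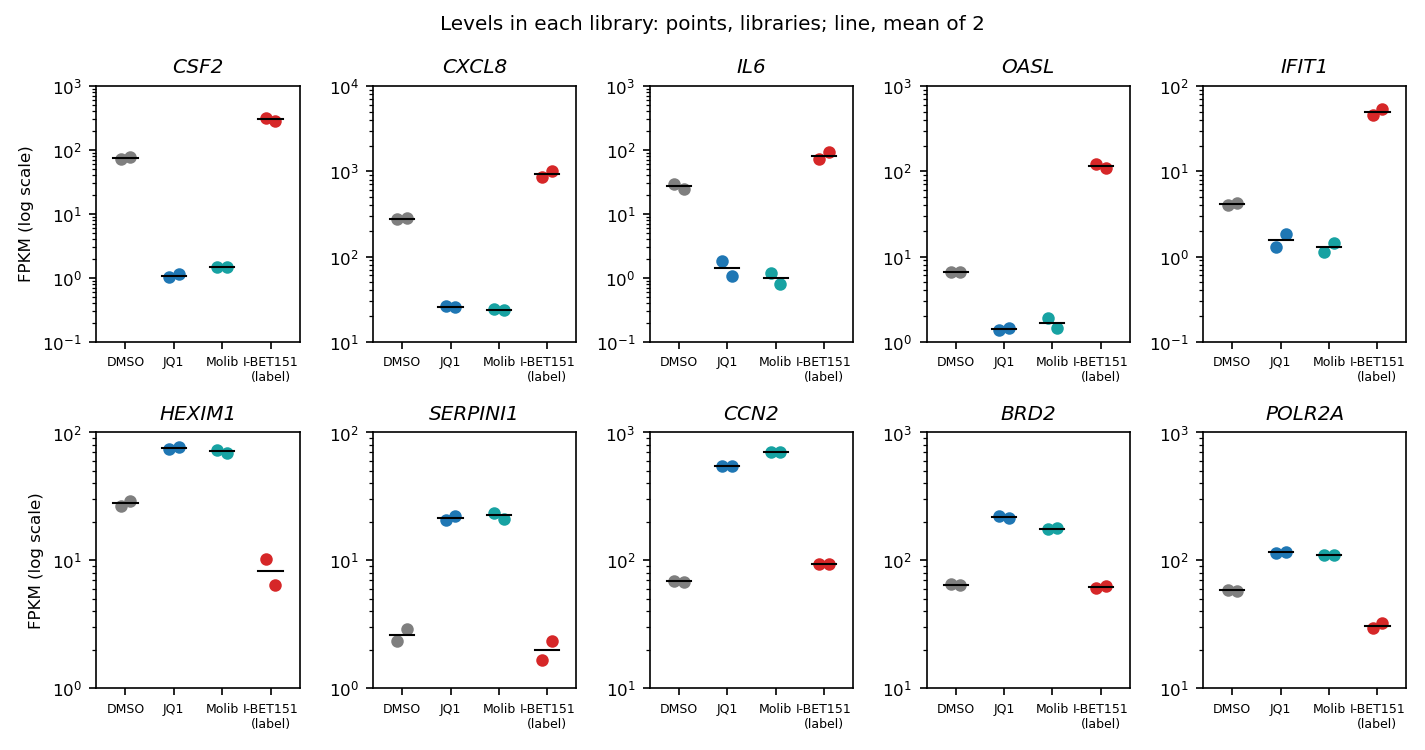
FPKM on a log axis (each panel has its own range) of 10 genes in the 8 libraries, by group; points are libraries and the line is the mean of 2. The libraries labelled I-BET151 lie above DMSO for CSF2, CXCL8, IL6, OASL and IFIT1, where JQ1 and Molib lie below it, and lie below JQ1 and Molib for HEXIM1, SERPINI1, CCN2, BRD2 and POLR2A.

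Read depth is unknown because the table holds no counts. Pearson r across the tested genes, which are not independent replicates, was 0.977 to 0.987 within groups, 0.984 to 0.985 between JQ1 and Molib libraries, 0.910 to 0.917 between the libraries labelled I-BET151 and those of JQ1 or Molib, and 0.944 to 0.952 between the former and DMSO. Transcripts of the mitochondrial genome made up 6.19 and 8.39% of FPKM in the libraries labelled I-BET151 and 5.5 to 6.04% in the others. The labels' protocol gives a pair of library preparations and does not tie them to samples, so preparation and label cannot be told apart. All 13 markers chosen for MDA-MB-231 were at 1 FPKM or more in both libraries of every group, and their sum was 3295 to 3358 FPKM in the libraries labelled I-BET151, 4293 to 4584 in JQ1 and Molib and 4002 to 4111 in DMSO. ESR1, which defines luminal cells of the other breast lineage, was listed at 0 in both DMSO and both Molib libraries and did not reach the level required for testing. Summed levels of 12 haematopoietic markers were 69.9 and 79.2 FPKM in the libraries labelled I-BET151, 36.6 to 43.3 in JQ1 and Molib and 56.5 to 64.2 in DMSO, with PTPRC, CD3E, MS4A1, SPI1 and TYROBP listed at 0 in both of the first. Those of 13 fibroblast and endothelial markers were 6.81 to 8.19, 5.62 to 7.32 and 10.99 to 14.5 FPKM, with FAP and VWF listed at 0 in the libraries labelled I-BET151. Those of 14 luminal markers, led by KRT19, were 837 to 848, 1575 to 1669 and 687 to 698 FPKM. Their part in the results below was not tested.

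About as many genes differed as did not. Of 14936 genes, 7477 (50.1%) passed an adjusted p under 0.05 between the libraries labelled I-BET151 and the mean of JQ1 and Molib, and such genes are named called. Of these, 4035 (27%) were higher and 3442 (23%) lower, and at 2-fold or more 1194 (7.99%) were higher and 796 (5.33%) lower. The median difference over all tested genes was 0.02. In 7341 called genes (49.1%) both libraries labelled I-BET151 lay beyond all 4 of JQ1 and Molib, against 8952 tested genes (59.9%) with that separation whether called or not. An exact permutation test of 2 libraries against 4 cannot go below p = 0.0667 (two-sided), so single genes rest on limma's estimate of spread shared across genes.

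The contrast did not rest on either compound of the pool. At matched dose and time, 6663 genes (44.6%) were called between the libraries labelled I-BET151 and JQ1 alone, 24.6% of all tested genes higher and 20.1% lower, and 8.28% and 5.7% at 2-fold or more. Against Molib alone 6504 (43.5%) were called, 23.6% higher and 19.9% lower, and 7.87% and 5.51% at 2-fold or more. Of the 7477 genes called against the mean of both, 1 had the opposite sign against JQ1 alone and 3 against Molib alone. Molib and JQ1 were the closest of the 3 pairs. No gene (0%) was called between them (limma, smallest adjusted p = 0.16), with 1227 genes (8.22%) at an unadjusted p under 0.05. The 2 Molib libraries lay beyond both of JQ1 in 46.4% of genes, a separation that 2 against 2 libraries often reach by chance. When p-values were adjusted over all 3 pairs together, the counts were 5998 and 5892 genes for the libraries labelled I-BET151 against JQ1 and Molib, and 380 for Molib against JQ1. The 380 depend on this pooling, because the many small p-values of the first 2 pairs loosen the joint threshold. They are not read as differences between Molib and JQ1. The median absolute log2 difference was 0.42 and 0.41 for the first 2 pairs and 0.13 for Molib minus JQ1. The 95% interval of Molib minus JQ1 lay within 2-fold for 13868 genes (92.8%), so larger differences remain possible for the others. For CSF2 that interval was -0.02 to 0.49 and for HEXIM1 -0.52 to 0.36 on the log2 scale, while the libraries labelled I-BET151 minus JQ1 gave 7.17 (6.92 to 7.42) and -3.06 (-3.50 to -2.62), and minus Molib 6.93 (6.68 to 7.19) and -2.98 (-3.42 to -2.55).

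**Figure D2:**
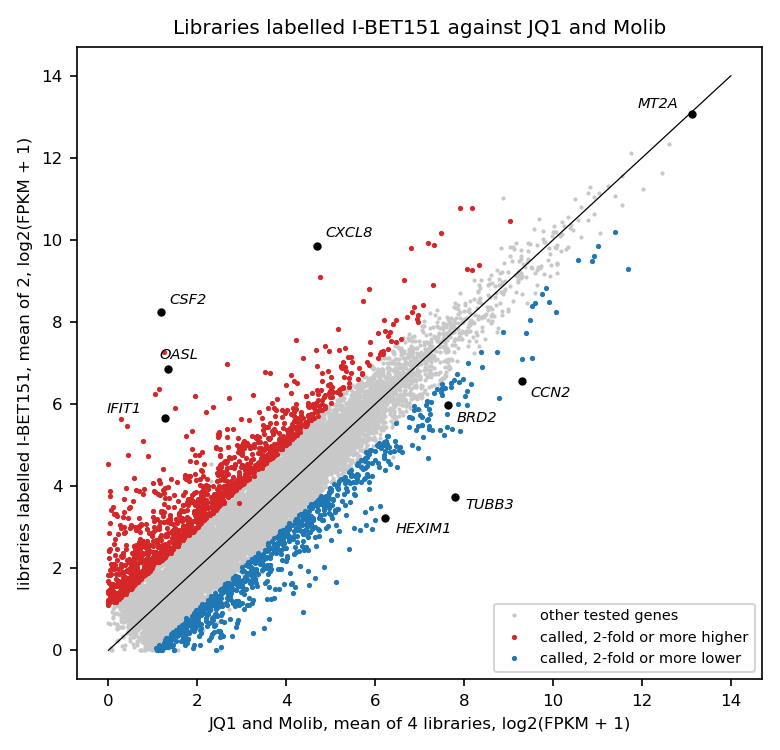
Mean level of each tested gene, log2(FPKM + 1), in the 2 libraries labelled I-BET151 (vertical) against the 4 JQ1 and Molib libraries (horizontal); red and blue points were called at 2-fold or more higher (1194) or lower (796), and the line marks equal levels. CSF2, CXCL8, OASL and IFIT1 lie far above the line and TUBB3, HEXIM1, CCN2 and BRD2 below it.

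The DMSO libraries showed which side departed. For each called gene, the place of the DMSO mean was read on the line from the JQ1 and Molib mean to the mean of the libraries labelled I-BET151, with near meaning within 0.25 of that gap on log2(FPKM + 1). DMSO lay between, from 0.25 to 0.75 of the gap, for 2718 genes (36.4%). It lay near the libraries labelled I-BET151 for 1841 (24.6%) and near JQ1 and Molib for 1427 (19.1%). Both sides lay on one side of DMSO for the rest, with JQ1 and Molib further out for 885 (11.8%) and the libraries labelled I-BET151 further out for 606 (8.10%). Among the 1990 genes called at 2-fold or more, DMSO lay between for 966 (48.5%), and for 31 (1.56%) the libraries labelled I-BET151 lay beyond JQ1 and Molib in the same direction from DMSO. These places describe distances, not tests. In the tests against DMSO themselves, 4181 genes (28%) were called for the libraries labelled I-BET151, 2069 (13.9%) higher and 2112 (14.1%) lower, and 6230 (41.7%) for JQ1 and Molib, 2675 (17.9%) higher and 3555 (23.8%) lower. At 2-fold or more the shares were 2.79% higher and 3.16% lower for the former, and 2.82% and 5.93% for the latter. Both counts rested on the DMSO pair, being 2054 and 3695 without DMSO replicate 1 and 2004 and 3696 without replicate 2. Those 2 comparisons share the DMSO libraries.

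**Figure D3:**
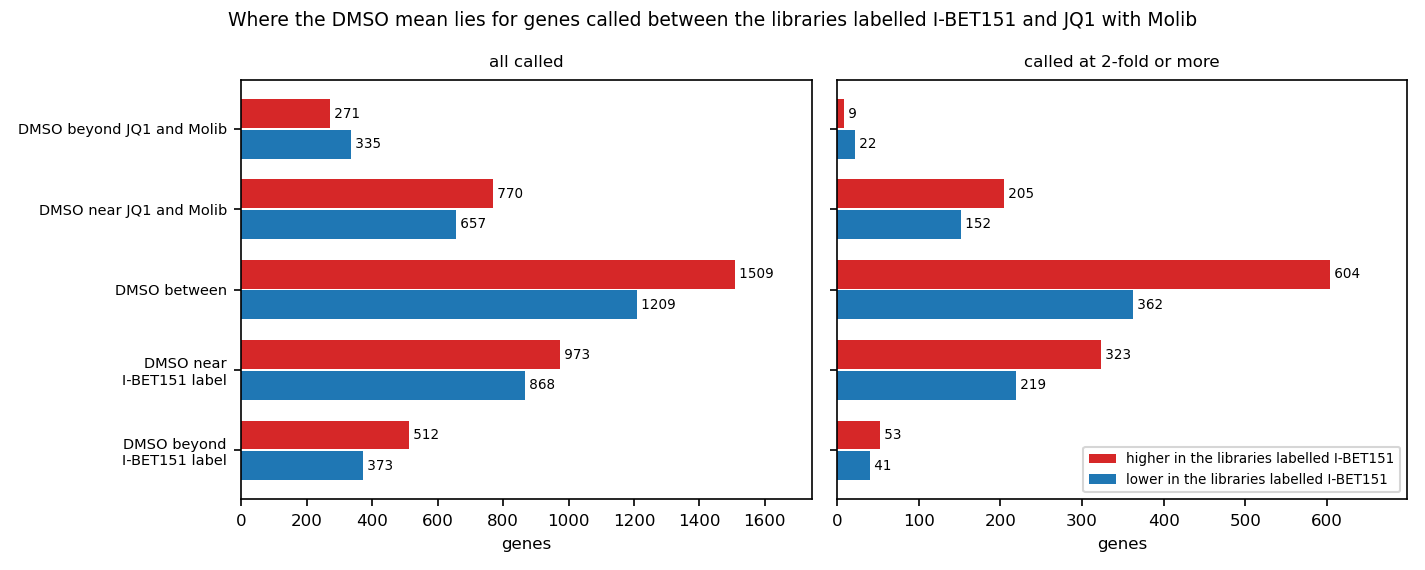
Number of called genes (horizontal) by the place of the DMSO mean relative to the 2 sides, for all 7477 called genes (left) and the 1990 called at 2-fold or more (right), red for genes higher and blue for genes lower in the libraries labelled I-BET151; each panel has its own scale. DMSO between is the largest class in both panels, with 1509 and 1209 genes on the left and 604 and 362 on the right.

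Genes of inflammation, CSF2, CSF3, IL6, IL1B, CXCL8, CXCL10, PTGS2 and CXCL1, stood among the 12 highest. NF-kB is a family of transcription factors that inflammatory signals release into the nucleus, where it switches on cytokine and chemokine genes. Of 43 tested genes of NF-kB, cytokines and chemokines, 39 were higher in the libraries labelled I-BET151 than in JQ1 and Molib and 0 lower, against 27% and 23% of all tested genes, and the median difference was 2.35 against 0.02 over all genes. A test of the genes of a list needs a level of 1 FPKM in any 2 libraries, so a gene can enter through the group where it is high. The 4 genes not called were the inhibitors NFKBIA (0.65) and NFKBIB (0.37) and the subunits RELA (0.44) and REL (-0.39). Beside DMSO, 34 of the 43 were higher and 0 lower in the libraries labelled I-BET151 (median 1.03), and 1 was higher and 31 lower in JQ1 and Molib (median -0.90). Over all tested genes those shares were 13.9% and 14.1% for the former and 17.9% and 23.8% for the latter.

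CXCL8, the neutrophil attractant interleukin 8, was at 858 and 995 FPKM in the libraries labelled I-BET151, 26.2 and 25.5 with JQ1, 24.02 and 23.8 with Molib and 275 and 283 with DMSO. The libraries labelled I-BET151 were 3.32-fold above the DMSO mean and JQ1 and Molib 11.2-fold below it, with no overlap of the 3 sets. Between the 2 sides CXCL8 differed 37.3-fold (log2 5.16, SE 0.08, limma adjusted p = 1.89e-07). CXCL1, another neutrophil attractant, was at 552 and 545 FPKM in the libraries labelled I-BET151, 27.4 and 23.9 with JQ1, 26.2 and 27.1 with Molib and 207 and 206 with DMSO. It showed the same order of groups and a log2 difference of 4.34 (95% interval 4.15 to 4.53). IL6, which encodes the cytokine interleukin 6, was at 71.9 and 91.6 FPKM in the libraries labelled I-BET151, 1.83 and 1.06 with JQ1, 1.18 and 0.798 with Molib and 29.1 and 24.6 with DMSO. The sets did not overlap, and IL6 shares exon positions with STEAP1B on the other strand. IL1B, the gene of interleukin 1 beta, was at 68.1 and 80.5 FPKM in the libraries labelled I-BET151, 0.998 and 1.16 with JQ1, 0.805 and 1.35 with Molib and 27.2 and 27.6 with DMSO, and PTGS2, which encodes the prostaglandin-forming enzyme COX-2, at 52.1 and 66.3 FPKM in the libraries labelled I-BET151, 2.02 and 1.92 with JQ1, 1.74 and 1.71 with Molib and 13.4 and 12.3 with DMSO. For both, JQ1 and Molib lay lowest and the libraries labelled I-BET151 highest. CSF3, the gene of G-CSF, differed in kind, at 162 and 143 FPKM in the libraries labelled I-BET151, 1.03 and 1.08 with JQ1, 1.89 and 1.502 with Molib and 127 and 119.9 with DMSO. Here the libraries labelled I-BET151 stood close to DMSO (log2 difference 0.30, limma adjusted p = 0.095), and the gap of 6.02 to JQ1 and Molib lay on the side of the latter. LIF, a cytokine of the interleukin 6 family, was at 42.2 and 37.4 FPKM in the libraries labelled I-BET151 and 2.53 to 2.72 in JQ1 and Molib. Below, a pair of values set against a range gives the 2 libraries labelled I-BET151 and the lowest to highest of the 4 JQ1 and Molib libraries, all in FPKM and for called genes.

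Interferon-stimulated genes, which carry out the cell's defence against viruses, were also mostly higher. Of 41 tested, 33 were higher and 2 lower, against 27% and 23% of all tested genes, with a median difference of 1.35. OASL, a relative of the oligoadenylate synthetases, was at 121 and 108 FPKM in the libraries labelled I-BET151, 1.37 and 1.45 with JQ1, 1.89 and 1.44 with Molib and 6.62 and 6.62 with DMSO. DMSO lay closer to JQ1 and Molib than to the libraries labelled I-BET151, which were 17.3-fold above DMSO. IFIT1, which binds foreign RNA ends, was at 45.5 and 54.4 FPKM in the libraries labelled I-BET151, 1.29 and 1.81 with JQ1, 1.13 and 1.43 with Molib and 4.06 and 4.25 with DMSO. Its order of groups was that of OASL, and the log2 difference was 4.40 (SE 0.13, limma adjusted p = 1.78e-06). IFIT2 and IFIT3, its neighbours in function, were at 71.2 and 73.4 and at 112 and 136 FPKM in the libraries labelled I-BET151, and at 2.04 to 3.53 and 3.95 to 6.56 in JQ1 and Molib. CXCL10, a chemokine induced by interferon, was at 17.9 and 26.5 FPKM in the libraries labelled I-BET151 and 0.0527 and 0.827 in DMSO. All 4 libraries of JQ1 and Molib listed it at 0, so no fold is given. CXCL10 reached 1 FPKM only in the libraries labelled I-BET151, so it entered the test only through the group where it is high. The 2 lower genes were the transcription factors IRF9 (-0.56) and IRF7 (-1.5), and STAT2 (-0.24), a partner of IRF9 in the factor that drives this group, was not called. Beside DMSO, 28 of the 41 were higher and 1 lower in the libraries labelled I-BET151 (median 0.96), and 5 were higher and 18 lower in JQ1 and Molib (median -0.39), against 13.9% and 14.1%, and 17.9% and 23.8%, of all genes.

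Promoters of 4 genes of these 2 lists and of HEXIM1 are printed because known factors of the lists bind short motifs. Each sequence is the 250 bases before the annotated start, from RefSeq (GRCh38.p14), read 5′ to 3′ on the strand of the gene. Capitals mark matches on either strand to a kB-like motif, GGNNTTTCC, an ISRE-like motif after the interferon response element, which is GAAA, any 2 bases and GAAA, or an AP-1-like motif, TGANTCA. The 3 motifs were searched separately, and no letters were counted for more than 1 of them here. The CXCL8 promoter (chr4:73740319-73740568, plus strand) held a kB-like and an AP-1-like match, and that of CXCL1 (chr4:73869143-73869392, plus strand) held 2 kB-like matches. The promoter of CXCL10 (chr4:76023498-76023747, minus strand) held a kB-like and an ISRE-like match, and that of IFIT1 (chr10:89392373-89392622, plus strand) held 2 ISRE-like matches. The HEXIM1 promoter (chr17:45148225-45148474, plus strand), shown as that of the opposite marker, held no match to any of the 3.
CXCL8: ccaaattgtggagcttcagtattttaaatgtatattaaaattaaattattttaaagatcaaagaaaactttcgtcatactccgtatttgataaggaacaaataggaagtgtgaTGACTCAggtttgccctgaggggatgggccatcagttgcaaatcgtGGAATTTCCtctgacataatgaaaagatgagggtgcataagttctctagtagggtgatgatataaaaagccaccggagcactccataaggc
CXCL1: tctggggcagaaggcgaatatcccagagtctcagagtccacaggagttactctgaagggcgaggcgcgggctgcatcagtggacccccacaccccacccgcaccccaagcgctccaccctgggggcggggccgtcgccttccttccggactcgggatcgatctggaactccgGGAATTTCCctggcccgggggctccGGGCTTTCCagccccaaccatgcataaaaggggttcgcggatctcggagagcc
CXCL10: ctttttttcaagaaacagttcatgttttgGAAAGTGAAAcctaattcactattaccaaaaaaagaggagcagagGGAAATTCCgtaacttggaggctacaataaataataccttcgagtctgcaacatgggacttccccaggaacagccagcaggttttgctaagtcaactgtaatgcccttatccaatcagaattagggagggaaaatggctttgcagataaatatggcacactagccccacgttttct
IFIT1: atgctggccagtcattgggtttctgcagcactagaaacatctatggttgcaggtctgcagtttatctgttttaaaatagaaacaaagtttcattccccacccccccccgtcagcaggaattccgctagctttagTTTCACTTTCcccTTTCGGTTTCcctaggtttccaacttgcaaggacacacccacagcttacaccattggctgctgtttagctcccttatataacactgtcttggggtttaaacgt
HEXIM1: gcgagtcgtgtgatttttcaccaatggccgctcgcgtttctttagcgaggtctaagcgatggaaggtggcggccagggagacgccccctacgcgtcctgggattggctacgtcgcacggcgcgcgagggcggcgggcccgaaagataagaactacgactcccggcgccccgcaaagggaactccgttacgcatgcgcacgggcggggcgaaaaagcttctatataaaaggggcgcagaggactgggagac

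Promoters were matched by symbol for 34 of the 43 NF-kB list genes and 30 of the 41 interferon-stimulated genes. A kB-like match was found in 17 of the 34 (50.0%) and in 5.48% of all 27305 promoters. An ISRE-like match was found in 18 of the 30 (60.0%) and in 3.07% of all promoters. These lists were drawn from genes known to answer to those factors, so the shares describe the lists. Over all genes called at 2-fold or more with a promoter, kB-like matches stood in 7.92% of 821 higher and 4.36% of 528 lower genes, ISRE-like matches in 4.63% and 1.52%, and AP-1-like matches in 9.26% and 2.27%, beside 5.85%, 2.32% and 3.8% of all 10290 tested genes with one. The promoter of CSF2 held none of the 3 motifs in this window. A match is a description of letters and not a site of binding.

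Genes known to rise with BET inhibitors stood lower in the libraries labelled I-BET151. Of 12 such genes, all tested, 0 were higher and 10 lower than in JQ1 and Molib, against 27% and 23% of all tested genes. The 10 lower genes include HEXIM1, the marker given above. The median difference of the 12 was -1.08. Several of them nevertheless stood above DMSO in the libraries labelled I-BET151, and the reason was not tested. Beside DMSO, 12 of 12 were higher in JQ1 and Molib, against 17.9% of all tested genes. In the libraries labelled I-BET151 7 were higher and 2 lower, against 13.9% and 14.1% of all tested genes. SERPINI1, which encodes neuroserpin, was at 1.68 and 2.33 FPKM in the libraries labelled I-BET151, 20.7 and 22.2 with JQ1, 23.7 and 21.2 with Molib and 2.35 and 2.88 with DMSO. The libraries labelled I-BET151 were not called against DMSO (log2 -0.27, 95% interval -0.62 to 0.07) and stood 10.95-fold below JQ1 and Molib. H2BC12, a histone H2B gene, followed the same pattern at 93.9 and 83.8 FPKM in the libraries labelled I-BET151, 291 and 281 with JQ1, 279 and 280.5 with Molib and 88.2 and 81.9 with DMSO. H2BC5, another H2B gene, did not, at 87.7 and 92.1 FPKM in the libraries labelled I-BET151, 234 and 226 with JQ1, 184 and 193 with Molib and 8.81 and 10.2 with DMSO. It was 9.48-fold above DMSO in the libraries labelled I-BET151 and 22.1-fold above it in JQ1 and Molib. CDKN1A, the inhibitor p21, was not called between the 2 sides (log2 0.25).

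Genes known to fall with BET inhibitors stood higher. Of 10 tested, of 12 listed, 8 were higher and 0 lower, against 27% and 23% of all tested genes. The median difference was 2.17, and MYC (0.21) and FOSL1 (0.29) were not called. CSF2, the marker given above, is a member of this list and of the NF-kB list, so the lists overlap. Both were chosen with earlier results of these data known. MYC, the growth regulator that often falls when BET proteins are blocked, was at 6.13 and 5.33 FPKM in the libraries labelled I-BET151, 5.93 and 3.43 with JQ1, 4.44 and 5.85 with Molib and 5.25 and 3.87 with DMSO. The libraries labelled I-BET151 overlapped those of JQ1 and Molib, and the 95% interval of that difference was -0.28 to 0.69. They stood above both of DMSO, the lower of them only just. The difference from DMSO was not called (log2 0.28, 95% interval -0.28 to 0.84).

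Among the genes of BET proteins, BRD2 was lower and BRD3 was not called. BRD2 was at 61.3 and 62.6 FPKM in the libraries labelled I-BET151, 224 and 215 with JQ1, 175 and 179 with Molib and 64.9 and 64.6 with DMSO. Its gap came from JQ1 and Molib, 3.06-fold above DMSO, while the libraries labelled I-BET151 were not called against DMSO (log2 -0.06, 95% interval -0.25 to 0.13). Exons of HLA-DMA overlap those of BRD2 on the other strand. BRD3 was at 12.8 and 12.6 FPKM in the libraries labelled I-BET151, 11.3 and 12.02 with JQ1, 12.1 and 10.1 with Molib and 12.8 and 12.9 with DMSO, with a log2 difference of 0.15 (-0.08 to 0.38).

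The machinery of transcription moved unevenly. Of 29 subunits of RNA polymerase II and its general factors, 4 were higher and 9 lower, shares of all genes being 27% and 23%. POLR2A, the catalytic subunit, was at 29.6 and 32.4 FPKM in the libraries labelled I-BET151, 114 and 117 with JQ1, 111 and 111 with Molib and 58.6 and 57.8 with DMSO. DMSO lay between, 1.88-fold above the libraries labelled I-BET151, with JQ1 and Molib 1.94-fold above DMSO. The TATA-binding protein gene TBP went the other way, at 15.3 and 17.8 FPKM against 9.29 to 10.7 in JQ1 and Molib. Of 26 P-TEFb, 7SK and elongation factor genes, 3 were higher and 7 lower, against the same shares of all genes. The kinase gene CDK9 (0.15) and the cyclin gene CCNT1 (0.02) were not called. The 7SK-capping enzyme MEPCE was at 13.8 and 13.3 FPKM against 20.7 to 29.8, CTR9 of the PAF complex at 18.1 and 22.4 against 37.6 to 41.6, and the elongation factor ELL at 20.05 and 28.1 against 9.09 to 11.2. The 7SK RNA itself, RN7SK, was at 9.47 and 7.07 FPKM against 1.75 to 2.96, and small structured RNAs are read unevenly by such libraries.

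The m6A writer complex, named in the title of the series, was lower for 4 of its 9 tested genes and higher for 0. The shares of all tested genes were 23% and 27%. METTL3, the catalytic subunit, was at 18.3 and 13.7 FPKM in the libraries labelled I-BET151, 20.1 and 19.2 with JQ1, 21.5 and 19.7 with Molib and 25.4 and 27.2 with DMSO. Libraries of the 2 sides did not overlap, yet the difference of -0.33 (95% interval -0.61 to -0.04) missed the threshold (limma adjusted p = 0.0585). With TMM scaling or equal medians it was -0.37 and -0.38 and passed (limma adjusted p = 0.0383 and 0.04). Without I-BET151 label replicate 1 and 2 it was -0.52 and -0.13. A replicate block with JQ1 left out, so against Molib alone, gave -0.36 (limma adjusted p = 0.124). Exons of TOX4 overlap METTL3, and those of SOD2 overlap WTAP, on the other strand. METTL14, its partner, was at 3.998 and 2.99 FPKM in the libraries labelled I-BET151, 5.603 and 5.07 with JQ1, 8.59 and 5.37 with Molib and 11.6 and 9.59 with DMSO. The difference of -0.65 was called (limma adjusted p = 0.0219), and the call was lost without replicate 2 of the libraries labelled I-BET151 (adjusted p = 0.137), without JQ1 library a (0.0567) and with no filter on level (0.0563). WTAP, the adaptor of the complex, was at 19.6 and 21.5 FPKM in the libraries labelled I-BET151, 25.4 and 27.3 with JQ1, 23.5 and 21.5 with Molib and 30.7 and 32.8 with DMSO. WTAP missed the threshold (-0.23, limma adjusted p = 0.0644) and passed it with TMM scaling (0.0411) or with equal medians (0.0299). With the replicate block and JQ1 left out, WTAP was at -0.12 (limma adjusted p = 0.489). Without replicate 1 and 2 of the libraries labelled I-BET151 it was at -0.17 and -0.30. The subunits VIRMA, at 5.26 and 6.31 FPKM against 11.5 to 13.6 in JQ1 and Molib, ZC3H13, at 4.92 and 5.002 against 8.402 to 10.9, and RBM15B, at 4.97 and 4.56 against 12.1 to 13.5, were lower with log2 differences of -0.96, -0.86 and -1.23. Beside DMSO, 6 of the 9 writer genes were lower and 0 higher on each side. Of all tested genes, 14.1% were lower and 13.9% higher in the libraries labelled I-BET151, and 23.8% and 17.9% in JQ1 and Molib. Of 12 erasers and readers, 3 were higher and 4 lower than in JQ1 and Molib, against 27% and 23% of all tested genes. The demethylase gene FTO was at 4.96 and 6.65 FPKM against 2.51 to 3.11, the demethylase gene ALKBH5 at 44.99 and 44.5 against 57.96 to 62.2, and the reader gene IGF2BP3 at 13.4 and 17.2 against 6.05 to 7.92.

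Splicing regulators were mostly lower or not called. Of 30 tested, 2 were higher and 14 lower, against 27% and 23% of all tested genes, with a median of -0.39. PTBP1, which represses many alternative exons, was at 36.6 and 35.2 FPKM in the libraries labelled I-BET151, 144 and 144 with JQ1, 131 and 115 with Molib and 211 and 212 with DMSO. Both sides were under DMSO and the libraries labelled I-BET151 further so, 3.72-fold below JQ1 and Molib. Its paralogue PTBP2 was at 12.4 and 17.4 FPKM in the libraries labelled I-BET151, 3.98 and 3.23 with JQ1, 2.35 and 3.61 with Molib and 4.44 and 4.52 with DMSO. PTBP2 went the opposite way, 4.53-fold above JQ1 and Molib (log2 1.89, limma adjusted p = 0.000172). HNRNPH1, which binds G-rich splicing elements, was at 48.3 and 52.9 FPKM against 93.5 to 120.3.

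**Figure D4:**
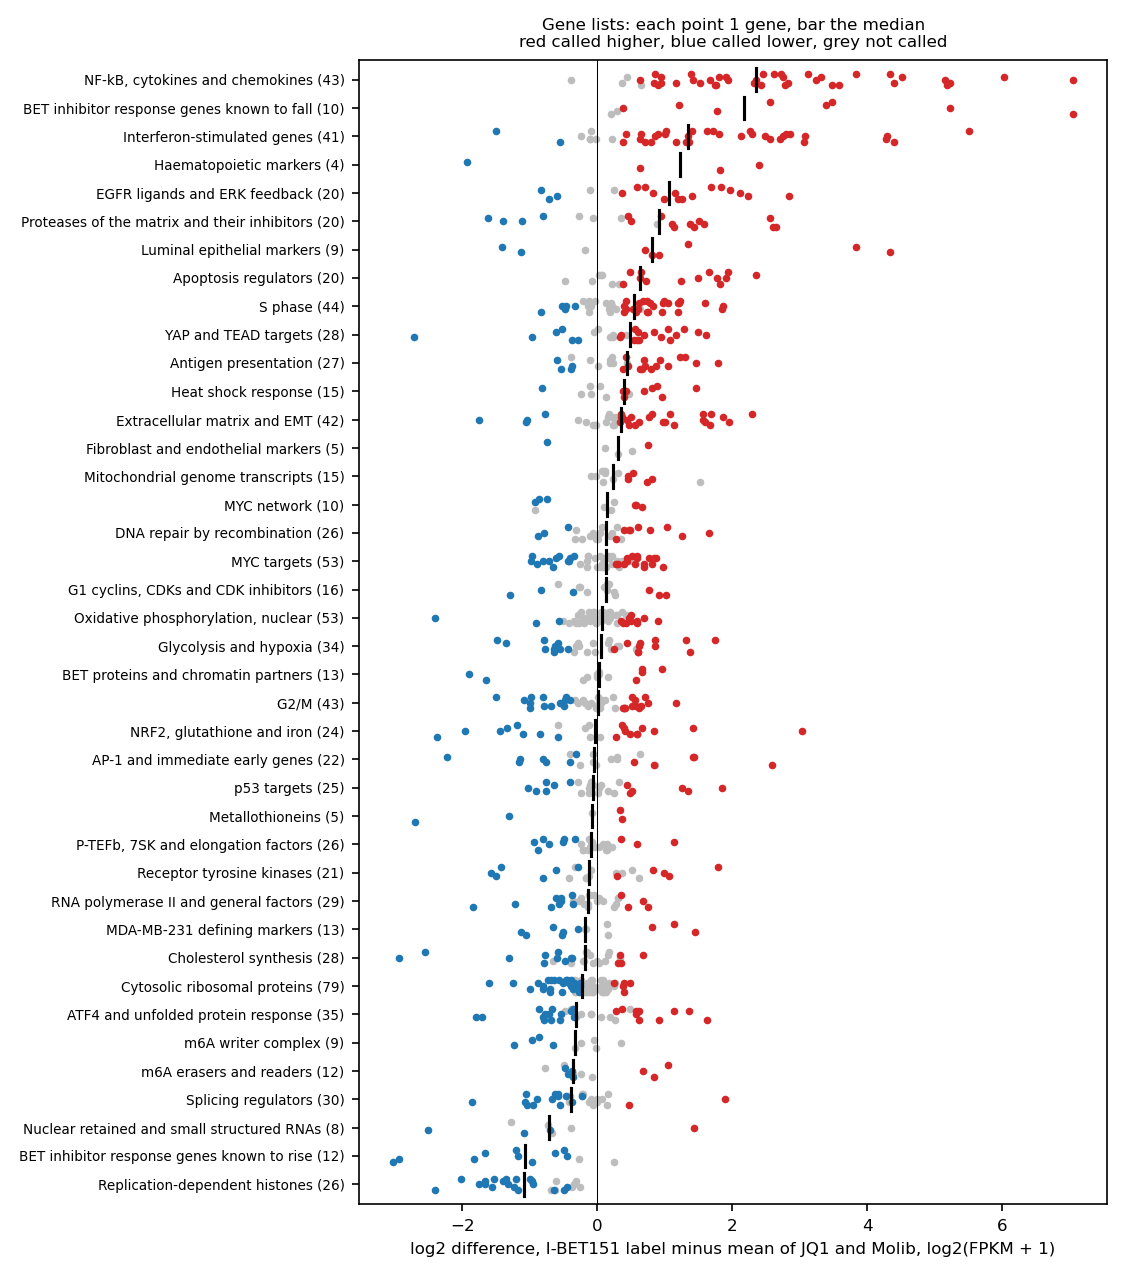
Log2 difference, libraries labelled I-BET151 minus the mean of JQ1 and Molib, for the tested genes (points) of 40 gene lists, with the number tested in brackets and the median as a bar; red and blue points were called higher and lower. NF-kB and interferon-stimulated lists have medians of 2.35 and 1.35 and lie to the right, and replication-dependent histones, with a median of -1.09, lie lowest.

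Most genes of the S phase and G2/M lists were called lower than DMSO on both sides, and 26 S phase genes were called higher in the libraries labelled I-BET151 than in JQ1 and Molib. Of 44 S phase genes, those 26 were higher and 5 lower, with a median of 0.54, against 27% and 23% of all tested genes. Against DMSO all 44 were lower in JQ1 and Molib (median -1.15; 23.8% of all genes) and 37 were lower and 0 higher in the libraries labelled I-BET151 (median -0.63; 14.1% and 13.9% of all genes). MCM5, a subunit of the replicative helicase, was at 34.5 and 36.1 FPKM in the libraries labelled I-BET151, 10.8 and 11 with JQ1, 10.7 and 11.7 with Molib and 48.8 and 48.5 with DMSO. E2F1, the factor that switches on S phase genes, was at 45.9 and 39.6 FPKM in the libraries labelled I-BET151, 10.2 and 11.9 with JQ1, 10.51 and 11.7 with Molib and 39.2 and 40.97 with DMSO. E2F1 overlapped DMSO in the libraries labelled I-BET151, whereas MCM5 lay between DMSO and the other side. Of 43 G2/M genes, 12 were higher and 13 lower, against the same shares of all genes, with a median of 0.02 (0.0995 and -0.0919 without replicate 1 and 2 of the libraries labelled I-BET151), and 39 were lower than DMSO on each side (medians -1.11 and -1.06). The mitotic kinase gene AURKA was at 51.4 and 53.5 FPKM against 20.1 to 26.3, and HMMR, a spindle protein gene, went the other way, at 2.15 and 2.13 against 5.800 to 10.4. BRCA2, of DNA repair by recombination, was at 0.354 and 0.703 against 1.43 to 2.07. CDKN2B, the inhibitor p15, was at 0.359 and 0.399 against 2.199 to 2.79, and CCND1, or cyclin D1, at 186 and 197 against 82.8 to 99.6.

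Replication-dependent histone genes have mRNAs that normally end in a stem-loop without a poly(A) tail. Of 26 tested (of 54 listed), 19 were lower and 0 higher, against 23% and 27% of all tested genes, with a median of -1.09. Beside DMSO, 19 of 26 were higher in JQ1 and Molib (17.9% of all genes) and 12 of 26 in the libraries labelled I-BET151 (13.9%), and none was lower on either side by the limma test. H4C14 was at 9.54 and 9.17 FPKM in the libraries labelled I-BET151, 57.1 and 59.2 with JQ1, 49.3 and 50.4 with Molib and 2.73 and 3.05 with DMSO, and H2AC18 at 52.1 and 45.7 FPKM in the libraries labelled I-BET151, 152 and 152 with JQ1, 142 and 138 with Molib and 8.204 and 7.87 with DMSO. Both followed the order DMSO, libraries labelled I-BET151, then JQ1 and Molib. H3C10 was at 1.38 and 1.29 FPKM against 7.53 to 9.497. Histone genes are near-identical copies, so levels of single genes are uncertain.

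**Figure D5:**
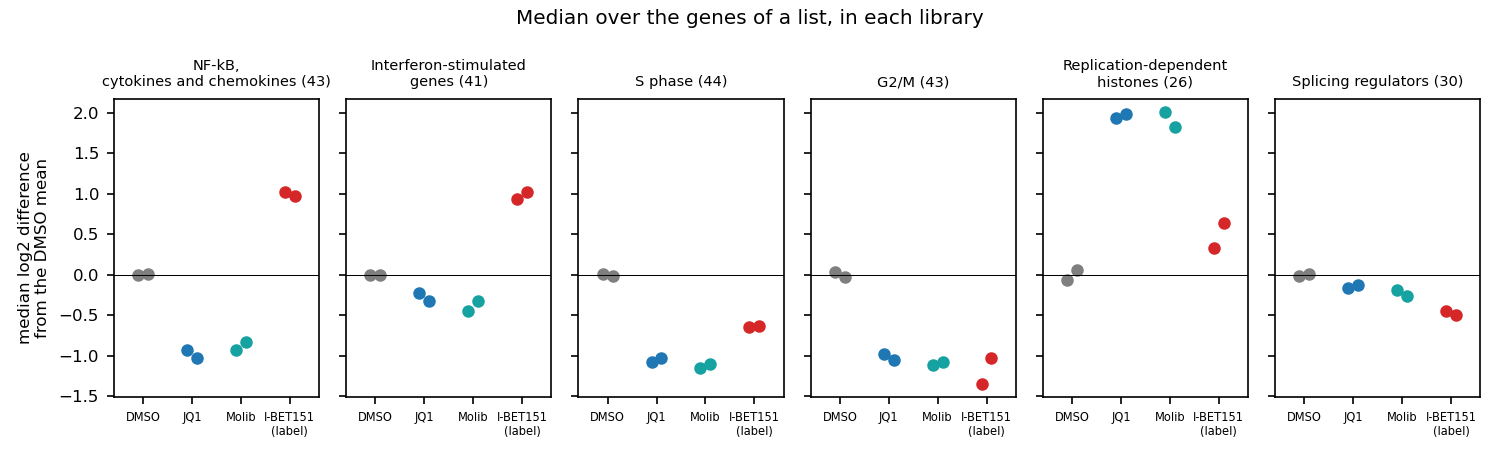
Median over the tested genes of 6 lists, as a log2 difference from the DMSO mean (vertical), in each of the 8 libraries by group; the number of genes is in brackets. NF-kB and interferon-stimulated lists lie above DMSO in the libraries labelled I-BET151 and below it in JQ1 and Molib, S phase and G2/M lists lie below DMSO in all 6 treated libraries, and the histone list lies above it in all 6.

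Signals to neighbouring cells and to the matrix formed further higher groups. Of 20 EGFR ligand and ERK feedback genes, 15 were higher and 3 lower, against 27% and 23% of all tested genes (median 1.07). AREG, the EGFR ligand amphiregulin, was at 122 and 119 FPKM in the libraries labelled I-BET151, 25.5 and 24.1 with JQ1, 25.2 and 24.4 with Molib and 28.9 and 29.8 with DMSO. JQ1 and Molib were just under DMSO, and the libraries labelled I-BET151 stood 4.11-fold above it. HBEGF, another ligand, was at 56.7 and 57.03 FPKM against 11.97 to 15.8, and ETV4, a factor downstream of ERK, at 39.6 and 38.9 against 4.15 to 5.08. The 3 lower genes were the phosphatases DUSP1 (-0.72), DUSP4 (-0.60) and DUSP6 (-0.83). Of 20 matrix proteases and inhibitors, 12 were higher and 4 lower, against the same shares of all genes (median 0.92). PLAU, which encodes urokinase, was at 231 and 220.1 FPKM in the libraries labelled I-BET151, 34.8 and 36.8 with JQ1, 35.1 and 33.2 with Molib and 169.6 and 173 with DMSO. The plasminogen activator of the other kind, PLAT, went the opposite way, at 342 and 330.2 FPKM in the libraries labelled I-BET151, 644 and 691 with JQ1, 807 and 795 with Molib and 243 and 242 with DMSO. TIMP3, an inhibitor of metalloproteases, was at 89.1 and 89.6 FPKM against 29.98 to 31.97.

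Of 42 matrix and EMT genes, 23 were higher and 4 lower, against 27% and 23% of all tested genes (median 0.35). The integrin gene ITGA5 was at 111 and 111 FPKM in the libraries labelled I-BET151, 30.1 and 29.2 with JQ1, 29.8 and 29.8 with Molib and 70.5 and 68.4 with DMSO, and ITGA3 at 77.8 and 79.5 FPKM in the libraries labelled I-BET151, 255 and 256 with JQ1, 276 and 279 with Molib and 155 and 155 with DMSO. ITGA5 was highest and ITGA3 lowest in the libraries labelled I-BET151, with DMSO between the sides for both. TGM2, a crosslinking enzyme, was at 113 and 99.4 FPKM against 24.3 to 28.4. VIM, the mesenchymal filament vimentin, was at 650.5 and 818 against 1388 to 1627. Of 28 YAP and TEAD targets, 16 were higher and 6 lower, against the same shares of all genes (median 0.48). CCN2, the matrix signal also called CTGF and a standard YAP target, was at 94.4 and 93.6 FPKM in the libraries labelled I-BET151, 548 and 546 with JQ1, 704 and 705 with Molib and 69.6 and 68.2 with DMSO. ANKRD1, another standard target, was at 451 and 507 FPKM in the libraries labelled I-BET151, 143 and 142 with JQ1, 164 and 174 with Molib and 50.01 and 51.4 with DMSO. CCN2 was 6.66-fold lower and ANKRD1 3.08-fold higher in the libraries labelled I-BET151 than in JQ1 and Molib, and both were above DMSO on each side.

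Apoptosis regulators were higher for 13 of 20 and lower for 0, against 27% and 23% of all tested genes (median 0.64). BID, which links death receptors to mitochondria, was at 57.3 and 71.7 FPKM in the libraries labelled I-BET151, 13.2 and 10.1 with JQ1, 12.6 and 11.2 with Molib and 31.2 and 30.5 with DMSO. BIRC3, an inhibitor of cell death and an NF-kB target, was at 24.5 and 30.7 FPKM against 6.33 to 6.77, and BCL2A1, a survival member of the BCL2 family, at 6.18 and 6.28 against 0.616 to 1.12. The list holds genes that promote and genes that restrain cell death, and both kinds were higher. Antigen presentation genes were higher for 15 of 27 and lower for 4, against the same shares of all genes (median 0.44). PSMB8, an immunoproteasome subunit, was at 62.7 and 62.9 FPKM against 16.4 to 18.4, and HLA-B at 693 and 643 against 304 to 348, a gene whose reads may be shared with its close relatives.

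Among immediate early genes, 5 of 22 were higher and 7 lower, against 27% and 23% of all genes (median -0.04, and -0.17 and 0.13 without replicate 1 and 2 of the libraries labelled I-BET151). IER3, a stress gene, was at 1699.7 and 1795 FPKM against 281 to 303 and EGR1, a growth-signal factor, at 22.7 and 21.9 against 7.36 to 7.99. JUND was at 92.5 and 74.8 against 179 to 196. ZFP36, which destabilises cytokine mRNAs, was also lower (-2.22).

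The 12 lowest genes of the comparison included HEXIM1, SERPINI1 and CCN2, given above. TUBB3, a neuronal tubulin, was at 11.7 and 13.04 FPKM in the libraries labelled I-BET151, 196 and 252 with JQ1, 192 and 244 with Molib and 19.1 and 33.8 with DMSO. JQ1 and Molib stood apart from the other 4 libraries. PEG10, an imprinted gene derived from a retroelement, was at 2.08 and 2.24 FPKM in the libraries labelled I-BET151, 33.6 and 32.9 with JQ1, 27.6 and 40.1 with Molib and 2.38 and 3.41 with DMSO. ID2 and ID4, which block bHLH factors, were at 7.41 and 8.77 and 1.71 and 1.52 FPKM in the libraries labelled I-BET151 and 58.8 to 67.1 and 15.4 to 18.7 in JQ1 and Molib. ZNF711, a zinc finger gene, was at 0.374 and 0.327 against 6.54 to 10.2, and TM7SF2, a sterol reductase, at 5.27 and 3.83 against 38.8 to 47.5. MIR3665, MIR1244-2 and SNORD3A completed the 12, with log2 differences of -2.88, -2.72 and -2.82, and their values are uncertain because such short features sit within or resemble other transcripts. Annotated exons of other genes overlap TUBB3 and TM7SF2 on the same strand and PEG10, ID2 and CCN2 on the other. Among the 12 highest, SCG5, a chaperone of secretory granules, was at 43.8 and 52.9 FPKM against 0 to 0.649, and KRTAP2-3, a hair keratin-associated gene with near-identical copies, at 43.5 and 42.9 against 0.138 to 0.667.

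Markers of other cell types gave mixed directions. Of 9 luminal genes tested, 6 were higher and 2 lower, against 27% and 23% of all tested genes. SPDEF, an epithelial factor, was at 29 and 21.99 FPKM in the libraries labelled I-BET151, 0.673 and 0.951 with JQ1, 0.821 and 0.934 with Molib and 30.7 and 31.8 with DMSO, and TFF1, a secreted luminal peptide, at 26.9 and 25.2 FPKM in the libraries labelled I-BET151, 0 and 0.437 with JQ1, 0.277 and 0.729 with Molib and 0.629 and 0.329 with DMSO. SPDEF was not called between the libraries labelled I-BET151 and DMSO, nor TFF1 between JQ1 with Molib and DMSO. TFF1 reached 1 FPKM only in the libraries labelled I-BET151, so it entered the test only through the group where it is high. KRT19, a luminal keratin, was at 351 and 368 FPKM against 895 to 989.9. Of 4 haematopoietic genes tested, LAPTM5, at 26.2 and 32.1 against 4.08 to 5.499, CD14, at 5.03 and 5.71 against 0.384 to 0.994, and CD68, at 45.1 and 30.5 against 21.9 to 25.4, were higher, and CORO1A, at 2.79 and 1.45 against 9.79 to 11.2, was lower. The CD68 call was lost without replicate 1 of the libraries labelled I-BET151 (log2 0.35, limma adjusted p = 0.198) and without any 1 library of JQ1 or Molib (adjusted p = 0.055 to 0.0726). Of 13 markers of MDA-MB-231, 3 were higher and 6 lower, against 27% and 23% of all tested genes. The median difference was -0.18. CD44, among the 3 higher, was at 224 and 207 FPKM against 60.9 to 103, and VIM, given above, was among the 6 lower.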

How the data were processed

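RNA-seq values of 8 libraries were used: 2 each of DMSO, JQ1, Molib and the label I-BET151. The authors deposited FPKM per gene. No header names that unit, which was taken from how the values look and sum. The build hg38 and the tools Cufflinks 2.2.1, HISAT2 2.1.0 and CASAVA 1.4 are named, without roles, per the submitters' processing notes, and nothing used here gives run options or strand handling. The design allowed for counts, but without them the test for normalized values was used, on log2(FPKM + 1). A gene entered when 2 libraries reached 1 FPKM, all 4 groups were fitted together in R 4.3.3 by limma 3.58.1 with a trended empirical Bayes variance, and genes were called at a Benjamini-Hochberg adjusted p under 0.05. The fit was also run on simulated data with independent noise and few shifted genes. That setting differs from these data and does not check the number of genes called. Named genes were the 12 highest and 12 lowest called genes without overlap and with a mean of at least 5 FPKM, 9 genes always named, and up to 4 per list with the smallest adjusted p. Some genes under this rule are not reported here. List members given only by a log2 difference, such as those not called, and FOSL1, CDKN1A and ZFP36, were picked outside it, with their values already seen. The members and the 40 lists were chosen with earlier results of these data known. Locations are from GENCODE 29, matched for 171 of 171 named genes. GC content and length had a value for 99.4% of tested genes, and the median difference over 5 equal bins lay between -0.07 and 0.07 by GC and between -0.02 and 0.09 by length. Alternatives covered the pseudocount, filters, scaling, groups in the fit, a replicate block, a 2-fold limit, trend and each library left out.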

Additional observations from a re-analysis of the deposited data

How the results depend on the processing

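Among 17 alternatives other than the 2-fold limit, 161 of the 167 called named genes kept the call and 0 of 171 changed sign; MT1E, SLC30A1, MT-ATP8, CD68, MALAT1 and METTL14 lost it under at least 1. With the libraries labelled I-BET151 minus the mean of JQ1 and Molib, leaving out a library gave 6458 to 7047 calls (3528 to 3821 higher, 2929 to 3226 lower, 54.0 to 55.0% higher) against 7477, and scaling to equal medians gave 49.2% of calls higher against 54.0%. The 2-fold limit left 1990 (1194 and 796), 2088 against JQ1 (1237 and 851), 1999 against Molib (1176 and 823), 889 against DMSO (417 and 472) and 1307 for JQ1 and Molib against DMSO (421 and 886), by construction. Against DMSO, the 4181 calls of the libraries labelled I-BET151 became 2310 (1136 and 1174) with only those groups fitted, and 2054 (997 and 1057) or 2004 (964 and 1040) without DMSO replicate 1 or 2, up to 4450 (2181 and 2269) without another; the 6230 calls of JQ1 and Molib became 3695 (1497 and 2198) or 3696 (1464 and 2232), up to 7164 (3129 and 4035). Fewer samples were fitted in each. Leaving out a library gave 4590 to 6477 calls against JQ1 (2611 to 3539 higher, 1967 to 2938 lower, the lowest without JQ1 library a), 4622 to 6492 against Molib (2588 to 3488, 2016 to 3004), and 0 to 3 for Molib minus JQ1 (0 to 2, 0 to 1). Samples share only a replicate number: deviations of same-numbered libraries correlated at -0.04, -0.12 and 0.04. With the number as a replicate block and JQ1 left out, calls were 5545 for the main comparison (then against Molib alone), 5390 of them shared in direction, 2697 (1315 and 1382) for the libraries labelled I-BET151 against DMSO and 3970 (1606 and 2364) for Molib against DMSO. Of 480 list medians 407 moved by less than the spread and 18 changed sign, 5 of them from a median larger than the spread: NRF2 genes, at -0.03, were at 0.0129 without JQ1 library a and at 0.148 and 0.0115 without I-BET151 label replicate 1 and 2 (-0.0376 to 0.148 over libraries left out), and G1 cyclins, at 0.12, at -0.00434 and -0.0312 without the same 2 (-0.0312 to 0.133); the cause was not tested. Unknown depth limits genes near 1 FPKM, where no counting error can be given.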

Other observations

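Counts below are to be read beside all tested genes, of which 27% were higher and 23% lower in the same comparison. Of 24 tested NRF2, glutathione and iron genes, 11 were higher in the libraries labelled I-BET151 than in JQ1 and Molib and 8 lower. FTL, the light chain of the iron store ferritin, was at 644 and 614 FPKM in the libraries labelled I-BET151, 3285 and 3260.3 with JQ1, 3326 and 3249 with Molib and 1332 and 1326 with DMSO, so that DMSO lay between the 2 sides (5.22-fold, limma adjusted p = 1.78e-06). NQO1, a quinone reductase, was at 27.9 and 28.2 FPKM against 58.4 to 95.2. AKR1C1, an aldo-keto reductase with near-identical paralogues, went the other way, at 11.4 and 14.8 against 0.583 to 0.853. Of 28 cholesterol synthesis genes, 4 were higher and 10 lower. SQLE, squalene epoxidase, was at 2.698 and 2.96 FPKM in the libraries labelled I-BET151, 24.1 and 19.2 with JQ1, 18.7 and 23.95 with Molib and 11.6 and 10.6 with DMSO. Of 34 glycolysis and hypoxia genes, 11 were higher and 10 lower, with PGK1 at 239 and 239 against 126 to 139 and NDRG1 at 54.7 and 46.6 against 117 to 143. Of the 53 nuclear genes of oxidative phosphorylation, 10 were higher and 3 lower (median 0.075). COX6A1, a subunit of cytochrome oxidase, was among the 3 lower. Its level was 150.03 and 128 FPKM in the libraries labelled I-BET151, 729.5 and 739 with JQ1, 733 and 755 with Molib and 649.95 and 674 with DMSO. Exons of AL021546.1 overlap COX6A1 on the same strand.

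Of 79 cytosolic ribosomal protein genes, 5 were higher and 26 lower (median -0.22), and the shift rested largely on 1 library, with a median of -0.0365 without replicate 2 of the libraries labelled I-BET151 and -0.34 without replicate 1. Examples are RPS6 at 464 and 445 FPKM against 838 to 1072 in JQ1 and Molib and RPL12 at 1242 and 1072 against 2057 to 2211. Among metallothionein genes, which bind zinc and copper and have near-identical copies, MT1X was at 750.3 and 813 FPKM in the libraries labelled I-BET151, 1981 and 1967 with JQ1, 1894 and 1915 with Molib and 162 and 154 with DMSO, above DMSO on both sides and further above it in JQ1 and Molib, whereas MT2A (-0.07) was not called. Nuclear retained NEAT1, the RNA that builds paraspeckles, was at 2.95 and 1.21 FPKM in the libraries labelled I-BET151, 14.2 and 23.5 with JQ1, 14.5 and 12.5 with Molib and 1.71 and 3.69 with DMSO, and MALAT1 at 1.99 and 3.62 against 5.02 to 9.08. The MALAT1 call was lost without replicate 1 of the libraries labelled I-BET151 (limma adjusted p = 0.0742). Receptor tyrosine kinases were higher for 5 of 21 and lower for 6, with FGFR3 at 4.02 and 4.16 against 11.5 to 17.7 and DDR1 at 22.5 and 16.4 against 3.98 to 5.997. Of 35 genes of ATF4 and the unfolded protein response, 10 were higher and 14 lower, with TRIB3 at 14.98 and 19.2 against 4.103 to 5.62 and PSAT1 at 36.1 and 35.1 against 60.4 to 64.6.

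The remaining lists are given mainly as counts, several of them near those shares of all genes. Heat shock genes were higher for 8 of 15 and lower for 1, mitochondrial genome transcripts for 5 of 15 and 0, and recombination repair genes for 9 of 26 and 3. The median of the mitochondrial list beside the DMSO mean was 0.07 and 0.61 in I-BET151 label replicates 1 and 2. That shift lay largely in replicate 2. MYC targets were higher for 16 of 53 and lower for 12, members of the MYC network for 3 of 10 and 3, G1 cyclins and CDK inhibitors for 3 of 16 and 3, and p53 targets for 6 of 25 and 6. BET proteins and their chromatin partners were higher for 4 of 13 and lower for 2, fibroblast and endothelial markers for 1 of 5 and 1, and nuclear retained and small structured RNAs for 1 of 8 and 3.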
